A study of Mus musculus with 8 samples.

Results

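The 9 genes described here are mouse genes whose human counterparts lie in regions linked to type 1 diabetes and which act in T cell signalling: Ptpn22, Ubash3a, Ptpn2, Tyk2, Sh2b3, Cd226, Ikzf1, Clec16a and Ormdl3. The members were taken by symbol from the 32285 features of the deposited count matrices, and each symbol matched 1 feature. Their UMIs, the counts of distinct captured transcripts, were read in pancreatic T cells from NOD mice, which become diabetic spontaneously. T cells were barcodes with at least 2 UMIs over 6 T cell receptor genes (Cd3d, Cd3e, Cd3g, Trac, Trbc1 and Trbc2). Among them, CD4-gated cells held at least 1 Cd4 UMI and none of Cd8a or Cd8b1, CD8-gated cells the reverse, and Foxp3-positive T cells at least 1 UMI of Foxp3, the factor that defines regulatory T cells.

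The series holds 8 single-cell RNA-seq libraries made with a 10x Genomics 3′ kit from T cells sorted as CD45+, CD3+ and TcR-beta+, frozen and later processed together. The active library came from untreated NOD mice with blood glucose above 600 mg/dl and the onset library from untreated NOD mice at 250 mg/dl, both harvested on day 1. The other 6 libraries came from new-onset NOD mice at 200 to 300 mg/dl that received PPCA or vehicle daily, 1 library of each harvested on day 2, on day 3 and on day 4. PPCA combines Nutlin-3 (50 mg/kg), an inhibitor of MDM2 that raises p53, with MK-1775 (25 mg/kg), an inhibitor of the cell cycle kinase WEE1. The vehicle held 30% EtOH, 5% Tween 20 and 65% PEG300. All groups are labelled as spontaneously diabetic female NOD mice of 3 to 4 months, or 3 to 5 months in the protocol, and the labels name no transgene or deleted allele. Every library thus came from diabetic mice, and no non-diabetic group is used here. The number of mice per library is not stated, so p-values measure the spread between libraries, and with 1 active and 1 onset library that pair allows no test.

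The labels were checked against the data before any comparison. Of the 8 libraries labelled female, 4 held Xist (418 to 618 CPM, UMIs per 1000000) and 4 held almost none (0.325 to 0.741 CPM) together with Y-linked transcripts (186 to 273 CPM in sum). Y-linked transcripts were found in vehicle day 2, vehicle day 3, PPCA day 3 and PPCA day 4. Called results of the members within libraries are therefore also given for the 4 Xist-positive libraries alone. Without the other 4, only the PPCA library of day 2 and the vehicle library of day 4 remain, so treatment was refitted with Xist status as a factor instead. Library totals ran from 36934580 to 67603740 UMIs, with 6231 to 11590 T cells per library after filtering and a median of 3846 to 6483 UMIs per cell. Each of the 6 T cell genes was at 549 CPM or more in every library and gate. The gates held 27618 CD4-gated, 22546 CD8-gated and 2606 Foxp3-positive T cells in all, and 21.4% to 35.1% of a library's T cells fell in neither the CD4 nor the CD8 gate. Of the Foxp3-positive cells, 1141 were CD4-gated and 261 CD8-gated, where the median depth of a library's CD4-gated cells was 3851 to 6171.5 UMIs and that of its CD8-gated cells 4265 to 7274 UMIs. Summed markers of other cells in the T cells of each library were 6.98 to 14.8 CPM for 4 B cell genes, 3.94 to 18.8 CPM for 6 myeloid genes, 16.2 to 38.1 CPM for 3 NK cell genes and 6.88 to 113 CPM for 10 pancreas genes, of which Gcg was at 0. Within gates, myeloid genes reached 39.3 CPM in CD4-gated cells (active) and 34.9 CPM in CD8-gated cells (vehicle day 2). Pancreas genes reached 221 CPM in CD4-gated cells (PPCA day 3) and 237 CPM in Foxp3-positive T cells (vehicle day 3). Of 71070 T cells, 11220 held at least 2 UMIs over 6 B or myeloid genes, and fits without them are an alternative below. Any 2 libraries shared between 14 and 41 cell barcodes.

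T cell activation starts when the receptor is engaged and the kinases LCK and ZAP70 phosphorylate the receptor chains and the adaptors behind them. PTPN22 and UBASH3A damp this step, CD226 adds a costimulatory signal, and cytokines act in parallel through JAK kinases and STAT factors, where TYK2 transmits and PTPN2 and SH2B3 restrain. IKZF1 (Ikaros) sets lymphoid gene programmes in the nucleus, CLEC16A takes part in mitophagy and endosomal sorting, and ORMDL3 restrains serine palmitoyltransferase, the entry step of sphingolipid synthesis. In the NOD pancreas, T cells with receptors for islet antigens accumulate around and within the islets.

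Promoter sequences of the 2 receptor-proximal brakes, Ptpn22 and Ubash3a, are shown because these genes moved together with Foxp3 and apart between CD8-gated and CD4-gated cells in the results that follow. The windows run from 250 bases before to 50 bases after a RefSeq transcription start (build GRCm38.p6), each 300 bases, 5′ to 3′ on the strand of the gene. The RefSeq table matched 7 of the 9 genes with 9 promoters; Ptpn2 and Cd226 had no entry. Capitals mark matches, on either strand, to 4 motifs: RUNX (TGTGGT), ETS (CCGGAAG), E-box (CAGGTG) and Ikaros (TGGGAA), none of which overlapped another in these windows. Ptpn22 has 2 starts in the table, at chr3:103859545-103859844 and chr3:103860027-103860326, both on the plus strand, and Ubash3a has 1, at chr17:31207816-31208115 on the plus strand.
Ptpn22, the first start: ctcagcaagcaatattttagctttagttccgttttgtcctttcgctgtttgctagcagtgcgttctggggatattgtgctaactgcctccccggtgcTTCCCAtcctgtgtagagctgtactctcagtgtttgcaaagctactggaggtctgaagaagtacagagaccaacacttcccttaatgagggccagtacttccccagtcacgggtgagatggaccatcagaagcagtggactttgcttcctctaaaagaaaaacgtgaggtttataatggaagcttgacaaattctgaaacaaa
Ptpn22, the second start: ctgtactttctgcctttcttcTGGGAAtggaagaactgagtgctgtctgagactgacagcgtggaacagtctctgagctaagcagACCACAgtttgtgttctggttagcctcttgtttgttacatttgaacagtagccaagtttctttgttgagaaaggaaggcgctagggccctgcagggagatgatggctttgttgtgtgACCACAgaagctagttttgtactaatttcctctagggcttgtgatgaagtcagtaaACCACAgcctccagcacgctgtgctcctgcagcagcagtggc
Ubash3a: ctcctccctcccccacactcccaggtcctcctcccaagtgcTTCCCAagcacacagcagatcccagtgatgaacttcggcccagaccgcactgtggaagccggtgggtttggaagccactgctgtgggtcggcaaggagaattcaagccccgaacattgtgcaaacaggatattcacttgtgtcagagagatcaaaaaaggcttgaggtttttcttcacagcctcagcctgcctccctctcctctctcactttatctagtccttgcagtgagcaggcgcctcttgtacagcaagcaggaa

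The second Ptpn22 window held 3 RUNX matches on the reverse strand (written ACCACA) and 1 Ikaros match on the forward strand. Its first window and the Ubash3a window each held 1 Ikaros match on the reverse strand (written TTCCCA). Clec16a (chr16:10545089-10545388, plus strand) and Ormdl3 (chr11:98587196-98587495, minus strand) also held 1 reverse Ikaros match each. The Sh2b3, Tyk2 and both Ikzf1 windows held no match to these letters. Over all 32851 promoters of the table, 16.8% held the RUNX letters, 8.86% the ETS letters, 20.2% the E-box letters and 25.6% the Ikaros letters. A match is a string of letters and was not tested as a binding site.

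**Figure D1:**
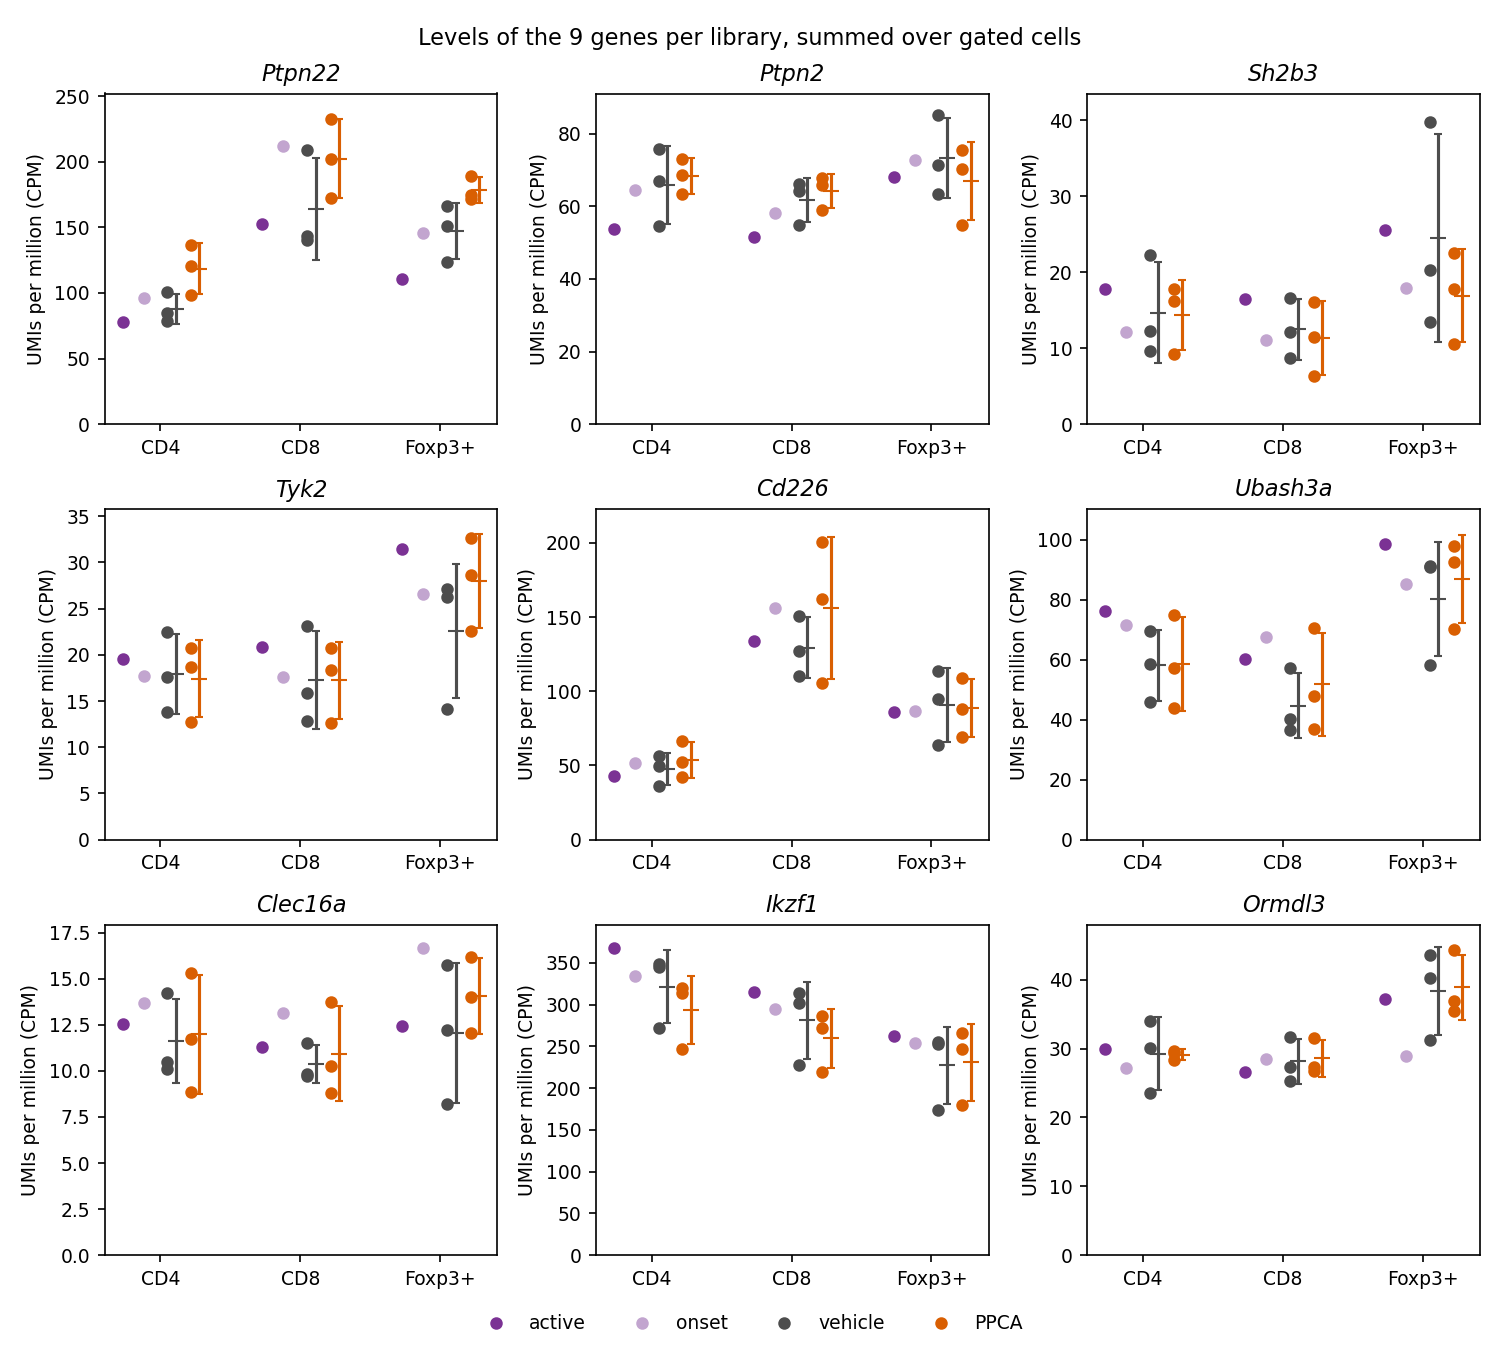
Level of each of the 9 genes in CPM (UMIs per 1000000, linear axis from 0) in CD4-gated, CD8-gated and Foxp3-positive T cells. Each point is 1 library, coloured by group, and the bars are mean and SD over the 3 vehicle or the 3 PPCA libraries. Cd226 and Ptpn22 lie highest in CD8-gated cells, while Ikzf1 lies lowest in Foxp3-positive T cells.

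The first comparison asked how the 9 genes differ between the main T cell populations of the same library, with counts summed per library and population. CD8-gated cells held 2.97-fold more Cd226 and 1.91-fold more Ptpn22 than CD4-gated cells, with no overlap between the 8 libraries of each. They held less Ubash3a, Ikzf1 and Sh2b3, by 1.11-fold to 1.17-fold. Thus 2 of the 9 were called higher and 3 lower, and 4 did not pass an adjusted p of 0.05 in the quasi-likelihood test of edgeR with library as a block. Of all 12696 genes tested 45.1% were called, and the median log2 difference was -0.05 over the 9 and -0.00159 over all genes. Among CD4-gated cells, Foxp3-positive against Foxp3-negative cells held 1.63-fold less Ikzf1 and more Cd226, Ptpn22, Ubash3a, Sh2b3 and Tyk2. That is 5 higher, 1 lower and 3 not called, where 31.5% of 12203 genes were called, with a median log2 difference of 0.30 over the 9 and -0.05 over all genes. Both shares of members called stand against these backgrounds, and no test of the 9 as a set was made. The share of all genes without overlap between these populations was not counted, here or for the single genes below. Within a gate, a change in the mix of cells and a change in RNA per cell cannot be told apart.

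**Figure D2:**
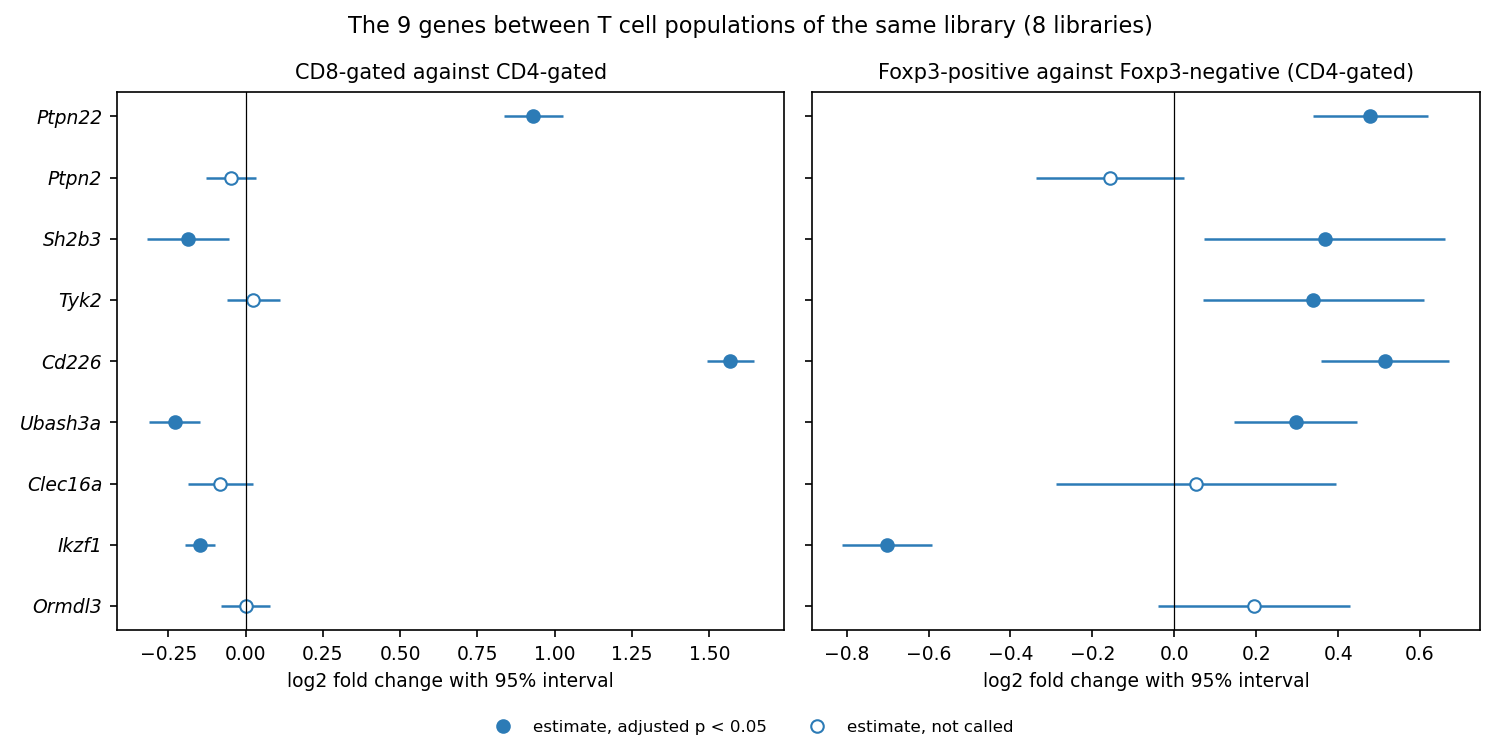
Log2 fold change of each of the 9 genes with its 95% interval, for CD8-gated over CD4-gated cells (left) and Foxp3-positive over Foxp3-negative CD4-gated cells (right), 8 libraries each. Filled points passed an adjusted p of 0.05. Cd226 (1.57) and Ptpn22 (0.93) lie far right on the left side, and Ikzf1 (-0.70) far left on the right side.

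Ptpn22, a phosphatase that dephosphorylates LCK and ZAP70, was at 77.6 (active), 96.0 (onset), 101, 78.4 and 84.5 (vehicle, days 2, 3 and 4) and 121, 98.3 and 137 CPM (PPCA, days 2, 3 and 4) in CD4-gated cells. The same libraries gave 152, 212, 209, 140, 143, 232, 172 and 202 CPM in CD8-gated cells. The lowest CD8-gated value (140) was above the highest CD4-gated value (137), and each library had more in its CD8-gated cells. The log2 difference was 0.93 (SE 0.0446, adjusted p = 1.35e-10 by edgeR), and 0.98 in the 4 Xist-positive libraries alone (adjusted p = 1.40e-08). Foxp3-positive T cells lay between, at 110 to 190 CPM, and overlapped both neighbours in that order. Within the CD4 gate, Foxp3-positive cells had more Ptpn22 in 8 of 8 libraries in CPM and in 7 of 8 after TMM scaling, the library size adjustment of edgeR (log2 0.48, SE 0.0693, edgeR adjusted p = 1.25e-07). In the 4 Xist-positive libraries this was 0.49 (adjusted p = 2.14e-05). With each cell thinned to 2000 UMIs that call was lost (log2 0.33, adjusted p = 0.0877).

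Ubash3a, a member of the STS family that binds ubiquitin and restrains receptor signalling, went the other way. It was at 76.3 (active), 71.7 (onset), 69.7, 58.7 and 46.1 (vehicle, days 2 to 4) and 74.9, 57.2 and 43.8 CPM (PPCA, days 2 to 4) in CD4-gated cells. CD8-gated cells of the same libraries held 60.3, 67.5, 57.1, 40.3, 36.6, 70.5, 47.8 and 37.0 CPM, less in each of the 8 libraries although the ranges overlapped. The log2 difference was -0.23 (SE 0.0386, edgeR adjusted p = 0.000156), and -0.12 with an adjusted p of 0.111 when cells were thinned. The Xist-positive libraries alone gave -0.19 (adjusted p = 0.00923). Foxp3-positive T cells were highest, at 58.2 to 98.6 CPM, overlapping the CD4-gated range. Foxp3-positive against Foxp3-negative CD4-gated cells differed by 0.30 (SE 0.0751, edgeR adjusted p = 0.00148), higher in 8 of 8 libraries in CPM and in 7 of 8 after TMM scaling. In the 4 Xist-positive libraries this was 0.25 with an adjusted p of 0.0983.

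Around these phosphatases, a list of 18 kinases, adaptors and brakes of receptor phosphorylation was tested in the same fits. In CD8-gated against CD4-gated cells 3 were higher, 8 lower and 7 not called (list median -0.05). The largest changes were in Ubash3b, the paralogue of Ubash3a (log2 -0.74), Sla2, an adaptor that promotes receptor removal (0.42), and Cd247, the zeta chain of the receptor (-0.39). Foxp3-positive cells had 7 of the 18 higher, 4 lower and 7 not called (list median 0.00176). There Sla, the relative of Sla2, was higher by 0.94 and Ubash3b by 0.74, and Pag1, the membrane anchor of the inhibitory kinase CSK, was lower (-0.62).

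Cd226, the activating receptor that competes with TIGIT and CD96 for the ligands CD155 and CD112, had the largest population difference of the 9. CD4-gated cells held 42.9 (active), 51.7 (onset), 56.7, 50.0 and 36.0 (vehicle, days 2 to 4) and 66.2, 52.4 and 42.1 CPM (PPCA, days 2 to 4). CD8-gated cells held 134, 156, 151, 127, 111, 201, 162 and 106 CPM in the same order, so the lowest CD8-gated library lay above the highest CD4-gated one. The log2 difference was 1.57 (SE 0.0361, edgeR adjusted p = 3.25e-14) and ranged from 1.52 to 1.64 over 16 alternatives, all called. It was 1.64 in the Xist-positive libraries alone (adjusted p = 3.85e-11). Foxp3-positive T cells held 64.1 to 113 CPM and overlapped slightly with both. Within the CD4 gate, Foxp3-positive cells were higher in 8 of 8 libraries (log2 0.52, SE 0.0780, edgeR adjusted p = 3.54e-07). The Xist-positive libraries gave 0.46 (adjusted p = 0.00137), and thinning to 2000 UMIs left 0.48 with an adjusted p of 0.0582.

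Of 7 genes of the CD226 axis, 6 were tested between CD8-gated and CD4-gated cells: 5 were higher and 1 lower (list median 0.31). The inhibitory receptors Pvrig (log2 2.34) and Tigit (0.76) were higher, while Pvr, which encodes the ligand CD155, was lower (-1.10). In Foxp3-positive cells 5 of 6 were higher and none lower (list median 0.44), with Pvrig at 2.86, Tigit at 2.74 and Itgal, the integrin chain that associates with CD226, at 0.47. Pvrig and Tigit were low throughout: their mean TMM-scaled levels were 1.26 and 2.38 CPM in CD8-gated cells, and 1.36 and 6.99 CPM in Foxp3-positive against 0.203 and 1.31 CPM in Foxp3-negative CD4-gated cells.

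The 3 members of the cytokine pathway come next. Tyk2, the JAK kinase of the interferon and interleukin-12 receptors, was at 12.7 to 22.4 CPM in CD4-gated and 12.7 to 23.2 CPM in CD8-gated cells, and their difference was 0.0254 on the log2 scale (95% interval -0.0614 to 0.112). Ptpn2, the phosphatase of JAK1, JAK3 and STAT factors, was at 53.8 to 75.8 CPM in CD4-gated and 51.6 to 67.8 CPM in CD8-gated cells, with a log2 difference of -0.05 (95% interval -0.126 to 0.0331). Neither difference was called. Sh2b3 (LNK), an adaptor that binds JAK2 and dampens cytokine signals, was at 9.19 to 22.2 CPM in CD4-gated and 6.37 to 16.7 CPM in CD8-gated cells, lower in the CD8-gated cells of 8 of 8 libraries in CPM and of 7 of 8 after TMM scaling. Its difference (log2 -0.19, SE 0.0624, edgeR adjusted p = 0.0244) was lost without the vehicle library of day 2 (adjusted p = 0.0669), the PPCA library of day 2 (0.0520) or the PPCA library of day 4 (0.0551), in the Xist-positive libraries alone (0.131) and with DESeq2 (0.0801), while the log2 value in these fits ran from -0.20 to -0.16. After thinning to 2000 UMIs it was -0.36 and called.

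In Foxp3-positive T cells Tyk2 was at 31.4 (active), 26.5 (onset), 26.3, 27.1 and 14.2 (vehicle, days 2 to 4) and 32.7, 28.6 and 22.6 CPM (PPCA, days 2 to 4). Sh2b3 there was at 25.6, 17.9, 39.8, 20.3, 13.4, 17.7, 22.6 and 10.5 CPM in the same order, from only 13 to 53 UMIs per library. The Foxp3-positive CD4-gated cells tested next held 5 to 27 UMIs of Sh2b3 and 8 to 29 of Tyk2 per library. Within the CD4 gate, Foxp3-positive cells held more of each than Foxp3-negative cells in 8 of 8 libraries in CPM and in 7 of 8 after TMM scaling. The edgeR differences, 0.34 for Tyk2 (SE 0.134, adjusted p = 0.0467) and 0.37 for Sh2b3 (SE 0.147, adjusted p = 0.04999), sat at the threshold. Tyk2 lost its call without the active, onset, PPCA day 2, vehicle day 3, PPCA day 3 or vehicle day 4 library (adjusted p from 0.0530 to 0.128), at log2 values of 0.30 to 0.37. It was at 0.20 (adjusted p = 0.779) after thinning to 2000 UMIs, and lost its call without the low-count filter (0.0972) and without cells holding B or myeloid UMIs (0.0733), at 0.32 and 0.39. Sh2b3 lost it without the active, vehicle day 2, PPCA day 2, vehicle day 3 or vehicle day 4 library (adjusted p from 0.0600 to 0.153), and in the same settings as Tyk2 (0.418 thinned, 0.109 without the filter, 0.149 without those cells) and without doublet removal (0.101). The log2 value of Sh2b3 in these fits ran from 0.31 to 0.48, the highest after thinning. Both lost it in the 4 Xist-positive libraries alone (adjusted p = 0.119 and 0.264), at log2 values of 0.42 and 0.38. Ptpn2 was not called (-0.16, 95% interval -0.337 to 0.0246), and its direction turned with the scaling: Foxp3-positive cells were higher in 2 of 8 libraries after TMM scaling and in 6 of 8 in CPM. It was at 54.9 to 85.0 CPM in Foxp3-positive T cells.

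A list of 18 JAK, STAT, receptor and inhibitor genes gave 17 tested genes. Of these 7 were higher, 7 lower and 3 not called in CD8-gated cells (list median -0.04), with the largest differences in Il12rb1, the receptor chain that TYK2 binds (1.22), Ifnar2, a chain of the type I interferon receptor (0.66), and Stat4, the factor downstream of interleukin-12 (0.62). In Foxp3-positive cells 10 were higher, 2 lower and 5 not called (list median 0.26), led by Il12rb1 (2.79), Jak3, the kinase of the common gamma chain (0.74), and Ifnar2 (0.51).

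Ikzf1 was at 367 (active), 334 (onset), 348, 345 and 271 (vehicle, days 2 to 4) and 314, 320 and 246 CPM (PPCA, days 2 to 4) in CD4-gated cells. CD8-gated cells held 316, 294, 313, 301, 228, 272, 287 and 220 CPM, less in each library (log2 -0.15, SE 0.0227, edgeR adjusted p = 7.45e-05) with overlapping ranges. Foxp3-positive T cells were lowest, at 174 to 266 CPM, overlapping the CD8-gated range. Within the CD4 gate the TMM-scaled mean was 216 ± 24.2 CPM in Foxp3-positive and 352 ± 44.3 CPM in Foxp3-negative cells (SD, 8 libraries), lower in each of 8 libraries with no overlap on that scale. In plain CPM it was also lower in each library, but the ranges overlapped, at 178 to 282 against 249 to 372 CPM. That log2 difference was -0.70 (SE 0.0542, edgeR adjusted p = 7.97e-16) and remained called in all 17 alternatives, between -0.90 and -0.64. The Xist-positive libraries alone gave -0.65 (adjusted p = 3.27e-10), and the CD8-gated difference of Ikzf1 was -0.19 (adjusted p = 0.00104).

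Among the other 4 Ikaros family genes, 3 were higher in Foxp3-positive cells. Ikzf2 (Helios, log2 4.34), Ikzf4 (Eos, 3.27) and Ikzf3 (Aiolos, 1.45) were called, and Ikzf5 was not (-0.0215, 95% interval -0.238 to 0.195). Ikzf2 and Ikzf4 are known regulatory T cell factors, and Ikzf2 is also on the marker list used to describe that gate. In CD8-gated against CD4-gated cells, Ikzf2 (-1.38) and Ikzf4 (-1.37) were lower and Ikzf3 (1.32) higher.

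Clec16a and Ormdl3 were not called between populations. Clec16a was at 8.87 to 15.3 CPM in CD4-gated, 8.78 to 13.8 CPM in CD8-gated and 8.20 to 16.7 CPM in Foxp3-positive T cells, and Ormdl3 at 23.6 to 34.1, 25.3 to 31.7 and 29.0 to 44.3 CPM. The CD8-gated minus CD4-gated log2 difference was -0.08 for Clec16a (95% interval -0.186 to 0.0227) and -3.06e-05 for Ormdl3 (95% interval -0.0794 to 0.0794). For Foxp3-positive against Foxp3-negative cells the intervals were wider, -0.289 to 0.394 for Clec16a and -0.0392 to 0.428 for Ormdl3. Of 5 genes around serine palmitoyltransferase, Ormdl2 (0.15) and Sptlc1, a subunit of that enzyme (0.12), were higher in CD8-gated cells. Among the same genes Sptssa, a small subunit (-0.27), was lower in Foxp3-positive cells. Of 4 tested genes that bind CLEC16A or neighbour it, Usp8, a deubiquitinase (0.11), was higher in CD8-gated cells, and Rnf41, the ubiquitin ligase NRDP1 (0.50), and Socs1, a JAK inhibitor next to Clec16a (0.26), were higher in Foxp3-positive cells.

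A broader list of 21 other type 1 diabetes candidate genes had 3 higher, 13 lower and 5 not called in CD8-gated cells (list median -0.27). The cytokine genes Il10 and Il21 were lower (-2.85 and -2.83), at TMM-scaled means of 0.323 and 0.740 CPM there, as was Il2ra (-2.01), which encodes the interleukin-2 receptor alpha chain. In Foxp3-positive cells 9 were higher, 7 lower and 5 not called (list median 0.02), led by Il2ra (4.66), Il10 (3.73) and Ctla4 (3.35), of which Il2ra and Ctla4 are also regulatory T cell markers.

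The authors' deposited table of cluster markers lists 3 of the 9 genes among 2100 entries over 7 clusters. In the authors' deposited table Ptpn22 was listed for CD8 TRM TEM (log2 1.17, detected in 73.7% of its cells against 37.1% of others), CD4 Th17 (0.63, 55.7% against 38.8%) and CD4 Treg (0.27, 40.5% against 39.6%). The authors' deposited table lists Cd226 for CD8 TCM (0.61, 51.1% against 19.5%), CD8 TRM TEM (0.63, 33.4% against 26.1%) and CD4 Th17 (0.28, 30.9% against 26.4%). Ubash3a appears in the authors' deposited table for CD8 TRM TEM (0.41), CD4 Treg (0.33) and CD4 Th17 (0.29). The other 6 genes are not listed there, and the lowest log2 fold change and detection share of any entry are 0.25 and 10%.

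The treatment comparison asked whether PPCA changed the 9 genes against vehicle, with harvest day as a block over 3 libraries of each. None of the 9 was called in CD4-gated, CD8-gated or Foxp3-positive T cells by edgeR. Few genes of any kind were: 0 of 11952 (0%; 808 at an unadjusted p under 0.05, 35 with DESeq2) in CD4-gated cells, 0.0167% of 12012 in CD8-gated cells and 0.0567% of 8816 in Foxp3-positive T cells, with 2 residual degrees of freedom. At an unadjusted p under 0.05, 2 of the 9 stood in CD4-gated cells (Ptpn22 and Ikzf1), where 6.76% of all genes did, and 0 in CD8-gated and Foxp3-positive T cells, where 8.15% and 6.15% did. Medians over the 9 were -0.07, -0.04 and -0.0160, and over all genes -0.00089, 0.0019 and 0.00528. Without the libraries of day 2, day 3 or day 4 the calls over all genes were 0, 1 and 89 in CD4-gated cells, 0, 0 and 157 in CD8-gated cells and 1, 6 and 64 in Foxp3-positive T cells, none of them a member.

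**Figure D3:**
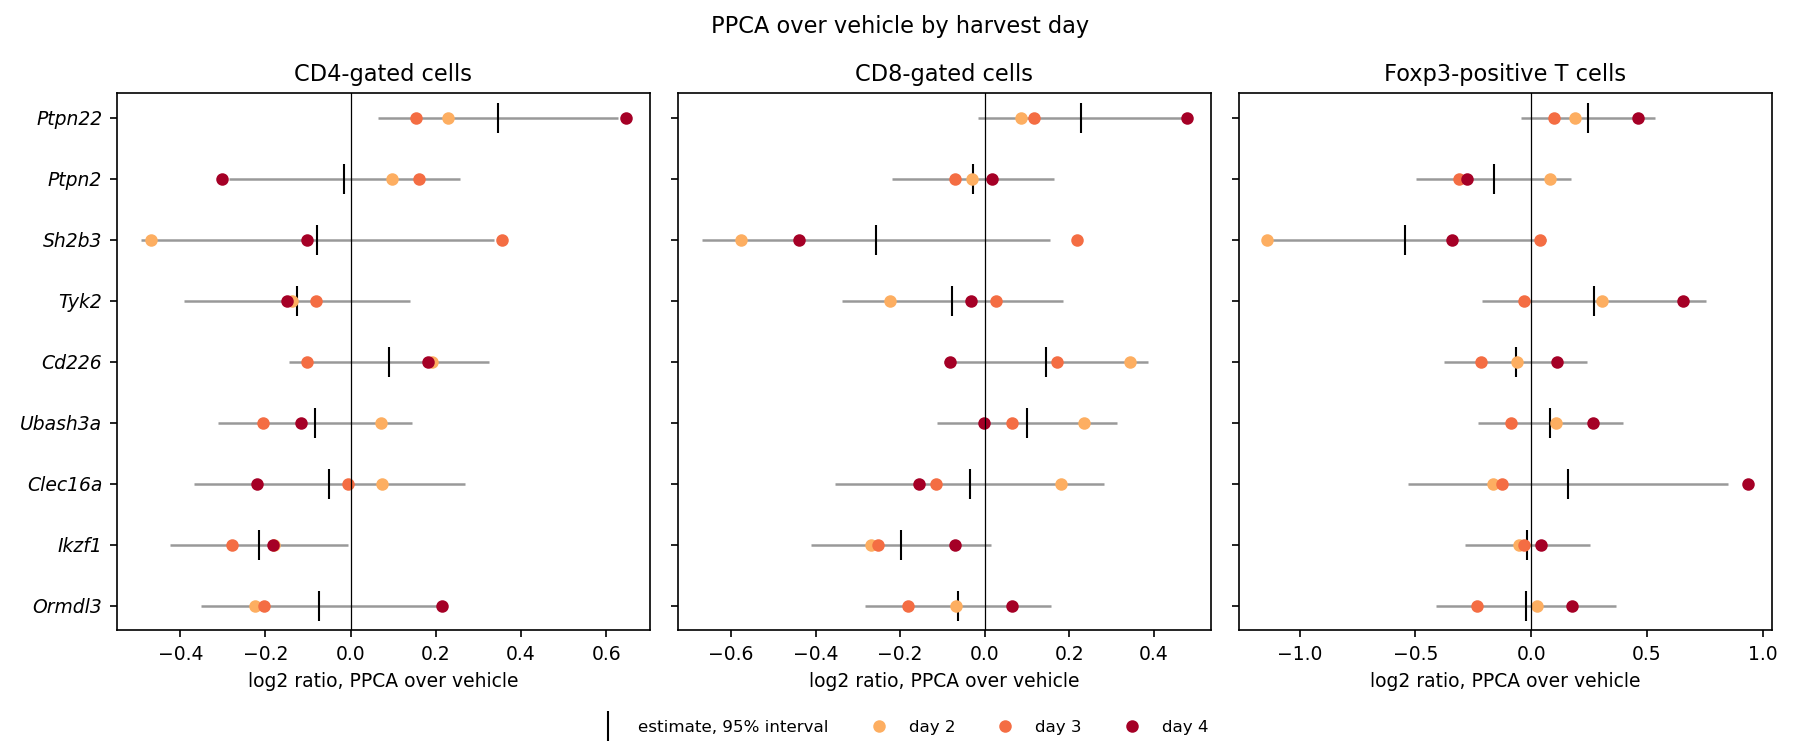
Log2 ratio of PPCA over vehicle for each of the 9 genes at harvest days 2, 3 and 4 (points, 1 library each per arm), with the fitted estimate (tick) and its 95% interval (line). Ptpn22 lies right of 0 on all 3 days in each population, and Ikzf1 left of 0 on all 3 days in CD4-gated and CD8-gated cells.

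Ptpn22 had a value above vehicle in CPM on each day in each population, without passing the test. The depth of PPCA cells was lower in each population. In CD8-gated cells the medians on days 2 to 4 were 4506, 5134 and 4265 UMIs, against 5914, 6222 and 5533 with vehicle. In UMIs per cell, Ptpn22 was lower with PPCA in CD8-gated cells on day 2 (1.11 against 1.30). It was also lower per cell in Foxp3-positive T cells on days 3 and 4 (0.761 against 0.788, 0.656 against 0.672), and higher in the other pairs. In CD4-gated cells vehicle and PPCA held 101 and 121 CPM on day 2, 78.4 and 98.3 on day 3, and 84.5 and 137 on day 4. Those ranges overlapped in CPM, although not after TMM scaling, where the share of all genes without overlap was not counted. The log2 estimate was 0.35 (SE 0.121, 95% interval 0.0642 to 0.627, edgeR adjusted p = 0.709), and ran from 0.19 without day 4 to 0.43 without day 3. In CD8-gated cells the pairs were 209 and 232, 140 and 172, and 143 and 202 CPM (0.23, SE 0.106, edgeR adjusted p = 0.638), with 0.10 without day 4 and 0.30 without day 2. In Foxp3-positive T cells they were 166 and 190, 151 and 175, and 124 and 171 CPM (0.25, SE 0.133, edgeR adjusted p = 0.797), with 0.14 without day 4 and 0.31 without day 3. There the 3 PPCA libraries lay above the 3 vehicle libraries, as 7.34% of 7742 genes did not overlap in one direction or the other. No member was without overlap in CD4-gated cells (3.42% of 7286 genes) or CD8-gated cells (3.14% of 7219).

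Other values stand beside the Foxp3-positive estimate. Cd8b1 and Cd8a were higher with PPCA there on 3 of 3 days (0.55 and 0.49, edgeR adjusted p = 0.448 and 0.738), and their sum was 96.1, 149 and 97.7 CPM in vehicle and 178, 213 and 116 CPM in PPCA libraries on days 2, 3 and 4. Restricted to CD4-gated Foxp3-positive cells, Ptpn22 was at 0.0236 (SE 0.160, edgeR adjusted p = 0.993), a restriction added after seeing those values. In CD4-gated cells 6 regulatory T cell markers summed to 334, 361 and 275 CPM (vehicle, days 2 to 4) and 519, 330 and 532 CPM (PPCA). In Foxp3-negative CD4-gated cells Ptpn22 was at 96.7, 74.1 and 82.8 CPM (vehicle) and 115, 95.8 and 135 CPM (PPCA). The part of these markers in the CD4-gated estimate of Ptpn22 was not tested.

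Ikzf1 had a value below vehicle on 3 of 3 days in CD4-gated cells, at 348 and 314, 345 and 320, and 271 and 246 CPM for vehicle and PPCA (log2 -0.21, SE 0.0895, edgeR adjusted p = 0.730). In CD8-gated cells it was also lower on 3 of 3 days, 313 and 272, 301 and 287, and 228 and 220 CPM (-0.20, SE 0.0924, edgeR adjusted p = 0.638). In Foxp3-positive T cells the estimate was -0.0160 (95% interval -0.287 to 0.255).

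The other 7 genes had estimates within -0.55 to 0.27. Sh2b3 was at -0.08 in CD4-gated and -0.26 in CD8-gated cells and had the most negative estimate, -0.55, in Foxp3-positive T cells (SE 0.281, edgeR adjusted p = 0.783), where 39.8 CPM in the vehicle library of day 2 stood against 17.7 CPM with PPCA, and it ran from -0.89 without day 3 to -0.11 without day 2. Cd226 was at 0.09, 0.15 and -0.07 and Ubash3a at -0.08, 0.10 and 0.08 in CD4-gated, CD8-gated and Foxp3-positive T cells. Tyk2 was at -0.13, -0.08 and 0.27, Ptpn2 at -0.0152, -0.0281 and -0.16, Clec16a at -0.05, -0.0357 and 0.16, and Ormdl3 at -0.07, -0.06 and -0.0223. Their 95% intervals all included 0. Leaving out 1 day moved several of these values by over 1.5 times: in CD8-gated cells Tyk2 ran from -0.13 to -0.00268, Cd226 from 0.0444 to 0.26 and Sh2b3 from -0.53 to -0.09, and in Foxp3-positive T cells Tyk2 ran from 0.14 to 0.44.

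The PPCA effect was also compared between CD8-gated and CD4-gated cells, where 0.00799% of 12520 genes were called by edgeR and 0 of the 9. At an unadjusted p under 0.05 stood 3.71% of all genes and 1 of the 9, Ubash3a, with a difference of 0.19 (SE 0.0787, edgeR adjusted p = 1). For Ptpn22 the difference was -0.12 (95% interval -0.310 to 0.0756). No gene of the 7 lists described above was called with PPCA in any of the 3 populations. With Xist status as a further factor 0 of the 9 were called by edgeR in any population, and Ptpn22 was at 0.35, 0.23 and 0.25 (adjusted p = 0.152, 0.240 and 0.654) and Ikzf1 at -0.21, -0.20 and -0.0148 (adjusted p = 0.427, 0.317 and 0.988) in CD4-gated, CD8-gated and Foxp3-positive T cells.

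In the untreated pair, active and onset diabetes, the libraries were described without a test, and intervals are exact Poisson 95% intervals that cover counting error only. No member differed by 1.5-fold or more in any population, against 3.63% of 7198 genes in CD4-gated, 5.21% of 7213 in CD8-gated and 14.9% of 7616 in Foxp3-positive T cells. Sh2b3 came closest, at 1.46-fold in CD4-gated and 1.49-fold in CD8-gated cells. Its active over onset ratio stood at percentiles 97.0 and 98.0 of these genes. The share of all genes with separate intervals was not counted. Ptpn22 was lower in the active than in the onset library in each population: 77.6 (73.7 to 81.8) against 96.0 (92.2 to 99.9) CPM in CD4-gated, 152 (147 to 158) against 212 (203 to 220) in CD8-gated and 110 (93.4 to 129) against 146 (128 to 165) CPM in Foxp3-positive T cells. Sh2b3 was higher in the active library, 17.8 (15.9 to 19.8) against 12.1 (10.8 to 13.6) CPM in CD4-gated and 16.5 (14.8 to 18.3) against 11.1 (9.24 to 13.2) CPM in CD8-gated cells. Myeloid markers summed to 39.3 CPM (active) and 7.89 CPM (onset) in CD4-gated cells, and to 4.89 and 4.15 CPM in CD8-gated cells. Their part in the values of this pair was not tested. Cd226 was at 42.9 (39.9 to 45.9) against 51.7 (48.9 to 54.6) CPM in CD4-gated cells and at 134 (129 to 139) against 156 (149 to 163) CPM in CD8-gated cells. Ikzf1 was at 367 (359 to 376) against 334 (327 to 341) CPM in CD4-gated cells and at 316 (308 to 323) against 294 (285 to 304) CPM in CD8-gated cells. Ptpn2 was at 53.8 (50.5 to 57.2) against 64.5 (61.4 to 67.7) CPM in CD4-gated cells, and its CD8-gated intervals overlapped. Intervals of Tyk2, Ubash3a, Clec16a and Ormdl3 overlapped in each of the 3 populations, as did those of all 9 genes in Foxp3-positive T cells.

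Nr4a1, an immediate early gene induced by the receptor, was used to separate recently triggered cells. In CD4-gated cells 1 of the 9 was called, Sh2b3, higher in Nr4a1-positive cells by 0.40 (SE 0.112, edgeR adjusted p = 0.0442, higher in 6 of 8 libraries after TMM scaling), where 4.91% of 12409 genes were called. After thinning to 2000 UMIs Sh2b3 was at 0.07 (adjusted p = 0.982), and its call was also lost without doublet removal (0.0514), without cells holding B or myeloid UMIs (0.105), with DESeq2 (0.0517) and in the Xist-positive libraries alone (0.299), at log2 values of 0.34 to 0.41. It was no longer called without the active, onset, vehicle day 2, vehicle day 3 or PPCA day 3 library (adjusted p from 0.0989 to 0.165, log2 0.32 to 0.39), and each of these fits lowered the 609 calls over all genes by more than 1.5-fold, to 302 without the active library. Ubash3a, not called at -0.19 (adjusted p = 0.0806), was called without the low-count filter (-0.22, adjusted p = 0.0244). In CD8-gated cells 1 of the 9 was called, Cd226, lower in Nr4a1-positive cells by -0.25 (SE 0.0602, edgeR adjusted p = 0.00786, lower in 7 of 8 libraries after TMM scaling), where 5% of 11851 genes were called. Cd226 was at -0.30 in the Xist-positive libraries (adjusted p = 0.0324) and at -0.16 after thinning (adjusted p = 0.792). The median log2 difference was 0.05 and 0.00307 over the 9, and -0.0114 and -0.0242 over all genes. Ptpn22 was at 0.15 in CD4-gated cells (95% interval 0.0219 to 0.280, adjusted p = 0.187) and 0.00307 in CD8-gated cells (-0.104 to 0.111). Nr4a1-positive CD4-gated cells numbered 1962 and 910 in the vehicle and PPCA libraries of day 4 and 150 to 551 in the other 6.

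Genes of the pathway lists were also compared by Nr4a1. Of the 21 other candidate genes, 7 were higher and 1 lower in Nr4a1-positive CD4-gated cells (list median 0.30), led by Il2 (2.03), which encodes the growth factor interleukin-2, Tagap (0.97) and Il2ra (0.83). In CD8-gated cells 5 of 20 tested were higher and 2 lower (list median 0.17), led by Il2ra (1.66), Tagap (0.99) and the early activation marker Cd69 (0.51). Of 18 genes of receptor phosphorylation, 4 were higher and 0 lower in CD4-gated cells (list median 0.06), led by the phosphatase gene Ptpn6 (0.35), the kinase gene Zap70 (0.35) and the adaptor gene Sla (0.32), and in CD8-gated cells 1 was called, Sla2 (-0.35). Of 17 tested JAK-STAT genes, Jak2 (0.33) and Stat5a (0.28) were among 3 higher and Socs3 (-0.48), a cytokine feedback inhibitor, was the 1 lower in CD4-gated cells, while Jak2 (0.30) was higher in CD8-gated cells. The Ikaros genes Ikzf2 (0.66 and 0.78) and Ikzf3 (0.39 and 0.21) were higher in CD4-gated and CD8-gated cells. The lists around CD226, the ORMDL proteins and CLEC16A had no gene called by edgeR, with medians of 0.16, -0.04 and 0.05 in CD4-gated and -0.02, -0.07 and -0.03 in CD8-gated cells.

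The 2 libraries of day 4 were the lowest for several members whatever the treatment. This comparison was added after seeing the values of the members, so the shares of all genes beside it are description only. In CD4-gated and in CD8-gated cells 6 of the 9 (Sh2b3, Tyk2, Cd226, Ubash3a, Clec16a and Ikzf1) were lower in both libraries of day 4 than in any of the other 6, and no member was higher in both. For comparison 25.2% of 7275 genes in CD4-gated and 26.6% of 7229 genes in CD8-gated cells were lower in both. In Foxp3-positive T cells 5 of the 9 (Sh2b3, Tyk2, Cd226, Ubash3a and Ikzf1) were lower, against 14.3% of 7719 genes. Tyk2 in CD4-gated cells, for example, was at 13.8 and 12.7 CPM on day 4 and 17.6 to 22.4 CPM elsewhere. Markers of recent triggering summed to 377 and 414 CPM in CD4-gated cells on day 4 and to 143 to 216 CPM in the other libraries, and their part in the lower levels was not tested.

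Likeness was measured across 24 sums, those of Foxp3-negative CD4-gated, CD8-gated and Foxp3-positive T cells in 8 libraries. These sums share depth and library within each library, and 261 cells count both as CD8-gated and as Foxp3-positive. The genes most like each member were ranked by Pearson's r over 7435 genes, without centring within populations. Cd226 was closest to Cxxc5, Cxcr6 and Nkg7 (each r = 0.95) and Ptpn22 to Efhd2 (0.93), Ccl5 (0.91) and S100a11 (0.91). Ikzf1 was closest to Washc3 (0.95), Maml2 (0.95) and Add3 (0.94), Ubash3a to Ucp2, Slc5a3 and Xiap (each 0.90) and Tyk2 to Aldh3a2, Zap70 (both 0.89) and Scai (0.88). Sh2b3 was closest to Rfx1, Mllt6 (both 0.88) and Cd27 (0.86), and Ptpn2 to Smn1 (0.85), Lsg1 (0.84) and Rrp1 (0.82). Clec16a (Atg2b 0.81, Zfp346 0.76, Med14 0.74) and Ormdl3 (Wdr6 0.77, Otud7b 0.75, Pitpnm1 0.71) had lower values. Between members, Ptpn22 and Cd226 had r = 0.85 over the 24 sums and 0.12 after centring within populations, whereas Tyk2 and Ubash3a had 0.80 both ways and Ptpn2 and Tyk2 -0.73 and -0.69.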

How the data were processed

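Droplet single-cell RNA-seq of sorted T cells was deposited as 1 matrix of raw UMI counts per library, made with Cell Ranger (6.0.0 per the file headers, 6.1.2 per the submitters' processing notes). Genome build is not given in the sources used here, nor is gene annotation. The authors' deposited marker table gives a log2 fold change, p-values and shares of cells with a gene for 7 clusters; per the submitters' processing notes Seurat was used.

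Barcodes with at least 500 genes and under 10% mitochondrial UMIs were kept. The highest Scrublet scores (scanpy 1.11.5, 0.8% per 1000 cells) were removed as doublets, which left 71197 of 80470 barcodes, of which 71070 were T cells. UMIs were summed per library and population, since cells are not replicates, and tested with edgeR 4.0.16 (TMM, filterByExpr, quasi-likelihood, R 4.3.3) with Benjamini-Hochberg adjustment over all genes and a threshold of 0.05. DESeq2 1.42.0 was an alternative. Harvest day was a block in treatment fits and library in comparisons within libraries. Day pairs the treatment libraries by label, and deviations from group means correlated within days 2, 3 and 4 by 0.346, 0.328 and 0.516 in CD4-gated, 0.351, 0.514 and 0.523 in CD8-gated and 0.176, 0.191 and 0.370 in Foxp3-positive T cells. Correlations between different days were not computed, so these values do not show how far each day pairs its libraries. The scripts were tested on simulated data. The mean levels quoted as TMM-scaled use the edgeR library sizes; all other levels are plain CPM.

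The members and gene lists were chosen with earlier results of these data known. All 9 members are named, and of each list the 3 called genes with the largest changes. Single results of 2 list genes and 1 planned comparison are not reported here. List genes overlap: Socs1, Dexi, Stat4, Ikzf3 and Ikzf4 stand on more than 1 list. Non-overlap and fold counts used genes at 10 CPM or more. Active and onset samples, 1 library each, were not tested.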

Additional observations from a re-analysis of the deposited data

How the results depend on the processing

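The reported numbers of genes called were 0 for PPCA in CD4-gated cells, 2 for PPCA in CD8-gated cells, 5 for PPCA in Foxp3-positive T cells, 1 for the PPCA difference between gates, 5732 for CD8-gated against CD4-gated cells, 3838 for Foxp3 status, 609 for Nr4a1 in CD4-gated cells and 592 for Nr4a1 in CD8-gated cells. Without the low-count filter, the number of genes called was 191 for PPCA in CD4-gated cells, 167 for PPCA in CD8-gated cells, 87 for PPCA in Foxp3-positive T cells, 56 for the PPCA difference between gates and 1022 for Nr4a1 in CD4-gated cells. With DESeq2, the number of genes called was 35 for PPCA in CD4-gated cells, 40 for PPCA in CD8-gated cells and 11 for PPCA in Foxp3-positive T cells. With Xist status as a further factor, the number of genes called was 81 for PPCA in CD4-gated cells, 186 for PPCA in CD8-gated cells and 54 for PPCA in Foxp3-positive T cells. Without doublet removal, the number of genes called was 0 for PPCA in CD8-gated cells. With cells thinned to 2000 UMIs, the number of genes called was 7 for PPCA in CD8-gated cells, 1 for PPCA in Foxp3-positive T cells, 3616 for CD8-gated against CD4-gated cells, 1703 for Foxp3 status, 236 for Nr4a1 in CD4-gated cells and 142 for Nr4a1 in CD8-gated cells. With no replicate block, the number of genes called was 0 for PPCA in CD8-gated cells, 0 for PPCA in Foxp3-positive T cells, 2008 for CD8-gated against CD4-gated cells, 2029 for Foxp3 status, 36 for Nr4a1 in CD4-gated cells and 52 for Nr4a1 in CD8-gated cells. Without cells holding B or myeloid UMIs, the number of genes called was 9 for PPCA in Foxp3-positive T cells and 2 for the PPCA difference between gates. In CD4-gated Foxp3-positive cells only, the number of genes called was 15 for PPCA in Foxp3-positive T cells. In the 4 Xist-positive libraries, the number of genes called was 2166 for Foxp3 status, 96 for Nr4a1 in CD4-gated cells and 290 for Nr4a1 in CD8-gated cells. Leaving out 1 library or, for PPCA, 1 day gave ranges of 0 to 89 for PPCA in CD4-gated cells, 0 to 157 for PPCA in CD8-gated cells, 1 to 64 for PPCA in Foxp3-positive T cells, 0 to 2 for the PPCA difference between gates and 302 to 843 for Nr4a1 in CD4-gated cells.

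Of 962 member values under the alternatives, 849 kept their direction and side of the threshold, 47 lost a call, 1 gained one and 65 changed sign. No called member value changed sign. The sign changes, as log2 values, were these. Without doublet removal, for PPCA in CD4-gated cells, Ptpn2 was 0.0106, and for PPCA in Foxp3-positive T cells, Cd226 was 0.0361 and Clec16a was -0.0423, and for CD8-gated against CD4-gated cells, Ormdl3 was 0.00873, and for Foxp3 status, Clec16a was -0.00292, and for Nr4a1 in CD8-gated cells, Ptpn22 was -0.000913. With cells thinned to 2000 UMIs, for PPCA in CD8-gated cells, Clec16a was 0.0256 and Ormdl3 was 0.0674, and for PPCA in Foxp3-positive T cells, Tyk2 was -0.191, Ubash3a was -0.0272, Ikzf1 was 0.0842 and Ormdl3 was 0.561, and for the PPCA difference between gates, Ptpn2 was 0.0582, Tyk2 was -0.110 and Ikzf1 was -0.0834, and for CD8-gated against CD4-gated cells, Clec16a was 0.00849, and for Foxp3 status, Clec16a was -0.633, and for Nr4a1 in CD4-gated cells, Clec16a was -0.274, Ikzf1 was -0.0376 and Ormdl3 was 0.136, and for Nr4a1 in CD8-gated cells, Ptpn22 was -0.135, Sh2b3 was -0.127, Ubash3a was 0.0443 and Ormdl3 was 0.271. Without cells holding B or myeloid UMIs, for PPCA in Foxp3-positive T cells, Ormdl3 was 0.00656, and for the PPCA difference between gates, Clec16a was -0.0185 and Ikzf1 was -0.00418, and for Nr4a1 in CD8-gated cells, Ptpn22 was -0.0760. In CD4-gated Foxp3-positive cells only, for PPCA in Foxp3-positive T cells, Clec16a was -0.380 and Ormdl3 was 0.261. Without the low-count filter, for the PPCA difference between gates, Ptpn2 was 0.0141, and for Nr4a1 in CD4-gated cells, Ikzf1 was -0.00953, and for Nr4a1 in CD8-gated cells, Ptpn22 was -0.00775. In the 4 Xist-positive libraries, for CD8-gated against CD4-gated cells, Ormdl3 was 0.0434, and for Foxp3 status, Clec16a was -0.0295, and for Nr4a1 in CD4-gated cells, Ikzf1 was -0.0354, and for Nr4a1 in CD8-gated cells, Ormdl3 was 0.120. Over all Foxp3-positive T cells, for Foxp3 status, Clec16a was -0.0662. Leaving out libraries also changed signs. For PPCA in CD4-gated cells the range was -0.109 to 0.128 for Ptpn2, -0.309 to 0.148 for Sh2b3, -0.109 to 0.0347 for Clec16a and -0.219 to 0.0126 for Ormdl3. For PPCA in CD8-gated cells the range was -0.143 to 0.0251 for Clec16a. For PPCA in Foxp3-positive T cells the range was -0.138 to 0.00360 for Cd226, -0.152 to 0.353 for Clec16a and -0.102 to 0.0806 for Ormdl3. For the PPCA difference between gates the range was -0.181 to 0.0988 for Ptpn2, -0.0572 to 0.215 for Cd226, -0.0321 to 0.0689 for Clec16a, -0.0300 to 0.0632 for Ikzf1 and -0.0638 to 0.0933 for Ormdl3. For CD8-gated against CD4-gated cells the range was -0.0254 to 0.0193 for Ormdl3. For Foxp3 status the range was -0.0383 to 0.100 for Clec16a. For Nr4a1 in CD4-gated cells the range was -0.0128 to 0.0477 for Ikzf1. For Nr4a1 in CD8-gated cells the range was -0.0274 to 0.0328 for Ptpn22. The cause of these changes was not tested, except that leaving out libraries and thinning lower the number of samples or UMIs. The block (harvest day or library) pairs the samples, and without it these calls were lost (log2 value, adjusted p): between the gates Ubash3a (-0.22, 0.282), Ikzf1 (-0.15, 0.363) and Sh2b3 (-0.19, 0.620), with Foxp3 status Sh2b3 (0.43, 0.148) and Ubash3a (0.36, 0.0601), and with Nr4a1 Sh2b3 (0.38, 0.709) and Cd226 (-0.27, 0.413). The CD4-gated restriction of Foxp3-positive cells and the comparison of day 4 with the other libraries were added after seeing the data. Sh2b3 and Clec16a, at 11 to 53 UMIs per library in Foxp3-positive T cells, are limited by depth.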
